A study of Arabidopsis thaliana with 12 samples.

Results

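The heat response of hd2b hd2c seedlings of Arabidopsis thaliana is described here across all genes, from RNA sequencing of whole seedlings. It compares 3 libraries of 6-day seedlings labelled hd2b hd2c knockout and held at 44 °C for 3 h (hd2b hd2c heat) with 3 libraries of seedlings of that genotype at 22 °C (hd2b hd2c normal). These are 6 of the 12 libraries of the series and were taken by their labels, with no measured value used to pick a library. The other 6 are wild type (WT), 3 after the same heat and 3 at 22 °C, and they share the fit and serve as the comparison for genotype. All seedlings grew on agar with sucrose in long days. The labels name no allele and no number of lines, and the normal group carries the time label 0 h, so whether it was collected at the start or the end of the heat period is not given. If it was collected at the start, heat and 3 h of time of day cannot be told apart. A heat response below means the difference between these groups. No label states that the replicates are separate cultures. If they are not, the p-values cover technical spread alone.

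HD2B and HD2C encode plant-specific histone deacetylases, enzymes that remove acetyl groups from histones. In plants, as in other eukaryotes, heat unfolds proteins, and heat stress transcription factors (HSFs) then bind heat shock elements, inverted repeats of the bases GAA, in front of chaperone genes. Small heat shock proteins hold unfolded proteins, HSP70, HSP90 and their J-domain partners refold them, HSP101 pulls aggregates apart, and the proteasome degrades what is not rescued.

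Library totals were 24030931, 7737285 and 23519653 counts in heat replicates 1 to 3 and 16844188, 18748086 and 17431810 counts in normal replicates 1 to 3. Heat replicate 2 stood apart as the shallowest library and by its ribosomal RNA. The ribosomal RNA features held 0.734, 11.2 and 0.986% of the heat libraries, against 1.35, 2.40 and 0.988% of the normal libraries. The groups overlapped in this measure (exact two-sided permutation test, p = 1.00). The 10 most abundant features held 18.3, 34.1 and 16.3% of the heat libraries, against 10.1, 10.4 and 7.81% of the normal libraries. Among the other measures, the chaperone genes (17 for small heat shock proteins and 25 for larger chaperones with their partners, 42 in all) held 5.06, 3.21 and 6.25% of the heat libraries, against 0.523, 0.495 and 0.436% of the normal libraries. Photosystem and antenna genes held 26.1, 31.3 and 23.8% of the heat libraries, against 10.9, 10.2 and 9.10% of the normal libraries. Features at 1 CPM or more (CPM, counts scaled to a common library total) numbered 15875, 14248 and 16221 in the heat libraries, against 18700, 18784 and 18950 in the normal libraries. Apart from ribosomal RNA, the heat and normal libraries did not overlap in any of these measures, and each gave p = 0.1 in the exact two-sided permutation test, the smallest that 3 against 3 allows (0.125 adjusted over the 5 measures). All replicate pairs differed by more than counting noise. The chi-square per gene was 159 and 165 for the pairs with heat replicate 2, and 8.24 to 19.1 for the other pairs.

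**Figure D1:**
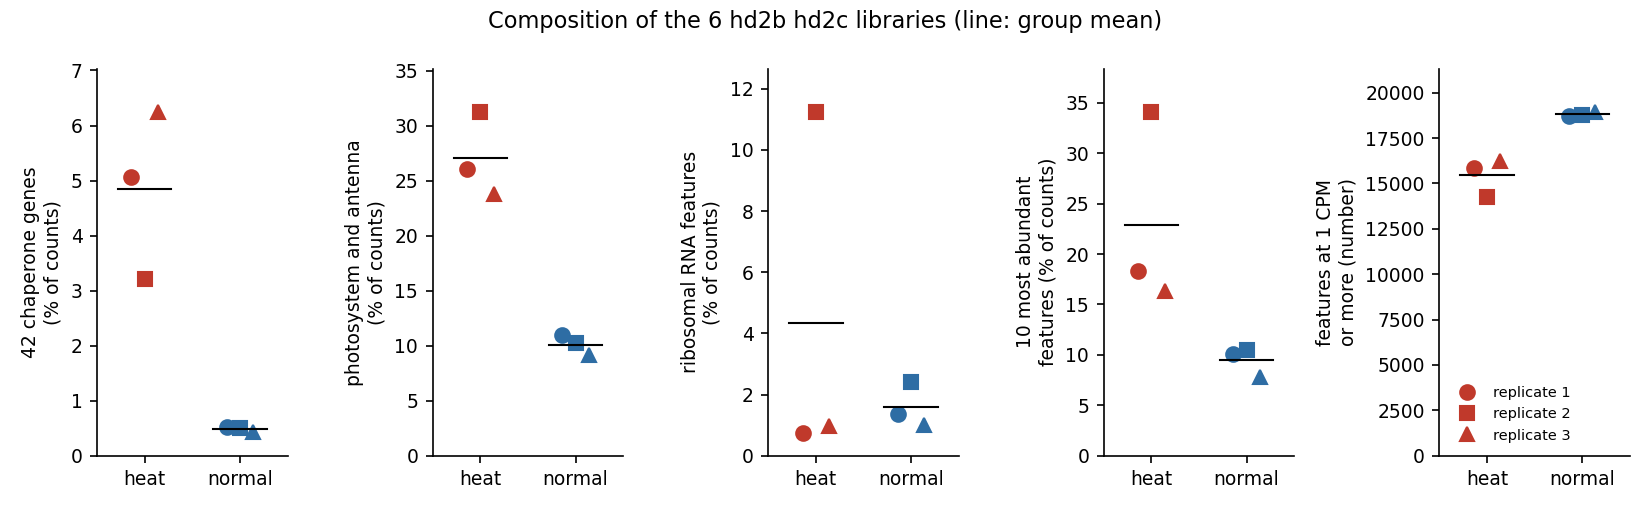
Composition of each hd2b hd2c library as a share of its counts or a number of features (vertical axes), heat left and normal right. Symbols mark replicates 1 to 3 and lines the group means, and heat replicate 2 holds 11.2% ribosomal RNA while the other 5 libraries hold at most 2.40%.

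The transcripts of the genes named in the genotype were checked first. HD2B (AT5G22650, chromosome 5) had 18.2, 14.0 and 23.5 CPM in the heat libraries, against 21.7, 22.8 and 26.9 CPM in the normal libraries, and the groups overlapped (log2 fold change -0.30, SE 0.142, adjusted p 0.0747). HD2C (AT5G03740, chromosome 5) had 294, 354 and 326 CPM in the heat libraries, against 106, 94.2 and 94.0 CPM in the normal libraries, and rose after heat in these libraries (log2 fold change 1.72, SE 0.114, adjusted p 9.15e-12). In WT, HD2C had a mean of 149 CPM after heat, against 37.3 CPM at normal temperature, below the means of 324 and 98.1 CPM in the libraries labelled hd2b hd2c knockout. HD2B had 85.8 CPM after heat, against 40.03 CPM at normal temperature in WT, above the means of 18.6 and 23.8 CPM in hd2b hd2c. The genotypes were not tested against each other here. Which part of a transcript the counts come from was not tested, so the groups go by their label.

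Most of the measured transcriptome of hd2b hd2c seedlings differed between the heat and normal libraries. Of 20232 genes tested with edgeR's quasi-likelihood test, 6058 rose (29.9%) and 6380 fell (31.5%) at a Benjamini-Hochberg adjusted p under 0.05. Together they were 61.5% of the genes tested. Changes of 2-fold or more comprised 3391 increases and 4162 decreases, and those of 4-fold or more 1021 increases and 1394 decreases. Among still larger changes, increases were the more numerous. Changes of 16-fold or more comprised 283 increases and 211 decreases, and those of 256-fold or more 56 increases and 3 decreases. Of the increases, 26 reached 1024-fold. Among called genes, 28 had 0 counts in all 3 normal libraries and 125 had 0 counts in all 3 heat libraries. Abundant features took more of the heat libraries and heat replicate 2 was shallow, which left fewer counts for low transcripts there. These numbers are therefore not directly comparable.

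Without heat replicate 2, 6075 genes rose and 6387 fell. Of the genes called with all libraries, 5763 of the increases (95.1%) and 6002 of the decreases (94.1%) were called again, and 0 turned direction. The log2 fold change moved by over 1.5-fold without this library in 246 genes (1.22%), and in 80 genes it moved by over 1 on the log2 scale, always downwards. Examples among those that moved most were chosen after their values were seen. AT1G15405, annotated as a non-coding RNA gene, had 24.3, 2167 and 18.4 CPM in the heat libraries, against 22.6, 18.2 and 10.95 CPM in the normal libraries. The 18S ribosomal RNA gene AT3G41768, among the most abundant features, had 10632, 263303 and 13161 CPM in the heat libraries, against 8124, 14017 and 5311 CPM in the normal libraries. Its log2 fold change of 3.39 (adjusted p 0.0442) became 0.37 (adjusted p 0.615) without heat replicate 2, so its call rests on that library.

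**Figure D2:**
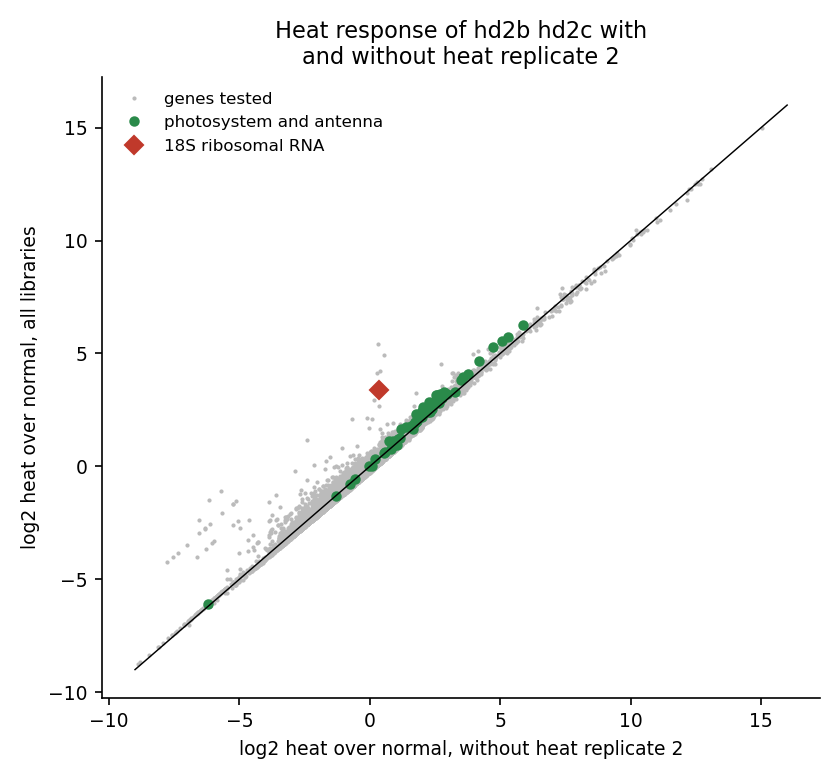
Log2 fold change of each gene tested, heat over normal in hd2b hd2c, with all libraries (vertical) against without heat replicate 2 (horizontal). The line marks equal values, photosystem and antenna genes are green (50 of 56 lie above it), and the 18S ribosomal RNA gene AT3G41768 (diamond) moves to 0.37.

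Directions below depend on the scaling of the libraries. With trimmed mean of M values (TMM) factors the median log2 fold change of all genes tested was -0.12, and with library totals alone it was -1.56. The 6058 increases and 6380 decreases became 969 and 15816 with totals alone, and 4752 and 8258 with upper-quartile factors. Among the genes named below as rising, NUC-L1, FIB1, TCP11, XTH7, IRX3, IRX1, UGT78D2, AGO4, AGO1, AGO2, PHT1;1 and ERF6 had values below 0 with totals alone. The median of a gene list is therefore given relative to that of all genes, on the log2 scale. In the sentences that follow, a value in brackets after a gene's name is its log2 fold change, heat over normal, CPM are scaled by TMM factors, and a mean is given with its SD over the 3 libraries of a group. Members called the highest or lowest of a list are so among called members with a mean of 5 CPM or more in either group. Every count of list members that rose or fell is to be read beside the 29.9% and 31.5% of all genes tested. In the genes whose values are given library by library below, other than HD2B, every heat library lay above or every heat library lay below all normal libraries. Of the 151 genes named, 32 overlap another tested gene in the annotation, mostly on the other strand, and the strand setting of the counting is not given in the sources used here, so reads of such pairs cannot be told apart. The overlapping gene changed by more than the named gene for UNE5, ATG3, SDH3-1, FIB1 and AT2G14080.

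The regulators of the heat response were among the genes with the largest increases. Of the HSF genes, 7 of 17 tested members rose and 4 fell. HSFA2, a class A factor that sustains the response once induced, had 2302, 1439 and 2592 CPM in the heat libraries, against 1.11, 0.955 and 1.21 CPM in the normal libraries (log2 fold change 10.91, SE 0.290, adjusted p 3.47e-19). AT-HSFA7B, another class A factor, had 234, 156 and 271 CPM in the heat libraries, against 0, 0.0637 and 0.0309 CPM in the normal libraries. Its 3 normal libraries together held 3 counts, and the ratio of heat to normal was 7477 (exact 95% interval 2558 to 36264, counting error only). RHA1, annotated as a winged-helix factor of the same family, went the other way (-2.37), with a mean of 0.731 ± 0.968 CPM after heat, against 5.02 ± 0.487 CPM at normal temperature.

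The upstream sequences of strongly raised genes are shown to make the heat shock elements visible. They are the 250 bases before the annotated start of 5 genes (RefSeq, assembly TAIR10.1, read 5′ to 3′ on the gene's strand). Each holds at least 2 elements and overlaps no other gene, and they were chosen after their values were seen. Capitals mark GAANNTTC or TTCNNGAA, each of which reads the same on both strands, and overlapping matches are merged. APX2 encodes a cytosolic ascorbate peroxidase, HSP17.4 a cytosolic small heat shock protein, AT1G71000 a J-domain protein and GolS1 a galactinol synthase.
APX2, chr3:2955906-2956155, plus strand: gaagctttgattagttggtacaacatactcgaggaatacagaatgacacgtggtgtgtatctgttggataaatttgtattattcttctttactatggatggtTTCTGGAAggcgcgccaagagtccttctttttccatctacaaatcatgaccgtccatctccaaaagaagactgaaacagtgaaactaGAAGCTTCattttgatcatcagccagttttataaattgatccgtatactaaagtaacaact
HSP17.4, chr3:16984868-16985117, minus strand: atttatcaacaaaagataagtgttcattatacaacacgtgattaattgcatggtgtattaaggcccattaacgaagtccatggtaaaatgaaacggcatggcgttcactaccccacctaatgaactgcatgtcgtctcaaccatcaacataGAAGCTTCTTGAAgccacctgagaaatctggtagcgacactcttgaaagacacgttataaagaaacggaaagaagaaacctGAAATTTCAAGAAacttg
AT-HSFA7B, chr3:23398986-23399235, plus strand: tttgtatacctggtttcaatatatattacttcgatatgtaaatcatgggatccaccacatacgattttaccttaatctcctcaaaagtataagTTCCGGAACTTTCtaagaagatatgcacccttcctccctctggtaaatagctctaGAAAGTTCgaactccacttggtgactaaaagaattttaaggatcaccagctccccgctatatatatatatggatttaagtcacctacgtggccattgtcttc
AT1G71000, chr1:26770178-26770427, minus strand: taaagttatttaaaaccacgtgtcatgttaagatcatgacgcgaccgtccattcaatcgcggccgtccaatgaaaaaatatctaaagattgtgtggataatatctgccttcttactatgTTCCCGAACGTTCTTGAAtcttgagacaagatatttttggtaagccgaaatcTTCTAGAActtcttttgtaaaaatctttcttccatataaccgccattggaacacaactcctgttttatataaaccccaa
GolS1, chr2:19370479-19370728, minus strand: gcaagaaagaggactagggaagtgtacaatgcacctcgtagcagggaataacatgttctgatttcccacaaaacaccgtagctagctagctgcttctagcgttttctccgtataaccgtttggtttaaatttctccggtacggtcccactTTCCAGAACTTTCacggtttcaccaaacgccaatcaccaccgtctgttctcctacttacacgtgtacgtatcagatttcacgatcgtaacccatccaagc

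In these windows APX2 held 2 elements of 2 units, the nearer starting 61 bases before the start, HSP17.4 held 4, AT-HSFA7B 3, AT1G71000 4 and GolS1 2. Across the 19698 protein-coding genes tested for which this window could be read, the 2-unit element occurred in 15.7%. It occurred in 18 of 52 promoters of genes that rose at least 256-fold (34.6%), in 27.0% of those that rose 16-fold to under 256-fold and in 20.2% of those that rose 4-fold to under 16-fold. Among genes that rose less than 2-fold the share was 15.3%, among genes that did not pass 14.7%, and among genes that fell at least 4-fold 15.8%. The 3-unit element, GAANNTTCNNGAA or TTCNNGAANNTTC on either strand, which contains overlapping 2-unit elements, was rarer and more uneven. It was found in 7 of 52 promoters of the genes at least 256-fold higher (13.5%), in 3.06% of those 16-fold to under 256-fold higher, in 0.318% of those that did not pass and in 0.432% of all. In most strongly raised genes no such letters were found in this window, which covers a short stretch only. By list, the 2-unit element was in 7 of 17 promoters of small heat shock proteins and 5 of 17 of HSF genes. It was in only 3 of 25 promoters of the larger chaperones, against 15.7% of all. The 3-unit element was in 2, 3 and 0 of these promoters. The G-box, CACGTG, was found in 17.3% of the promoters of genes at least 256-fold higher, 13.0% of those 4-fold to under 16-fold higher and 7.32% of all. The TATA box letters TATAAA were found in 51.9% of the promoters of genes at least 256-fold higher and 46.3% of all. Of the other motifs searched, the site II element TGGGCC was in 32.7% and 16.5%, the W-box core TTGAC in 36.5% and 44.8%, and the I-box GATAAG in 11.5% and 12.3% of these. Among genes that rose 16-fold to under 256-fold, the site II share was 14.8% and the TATA box share 42.3%, both below those of all promoters. The W-box core and I-box shares of that class were 45.9% and 17.9%, both above. Each share describes matching letters on either strand, not bound sites.

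**Figure D3:**
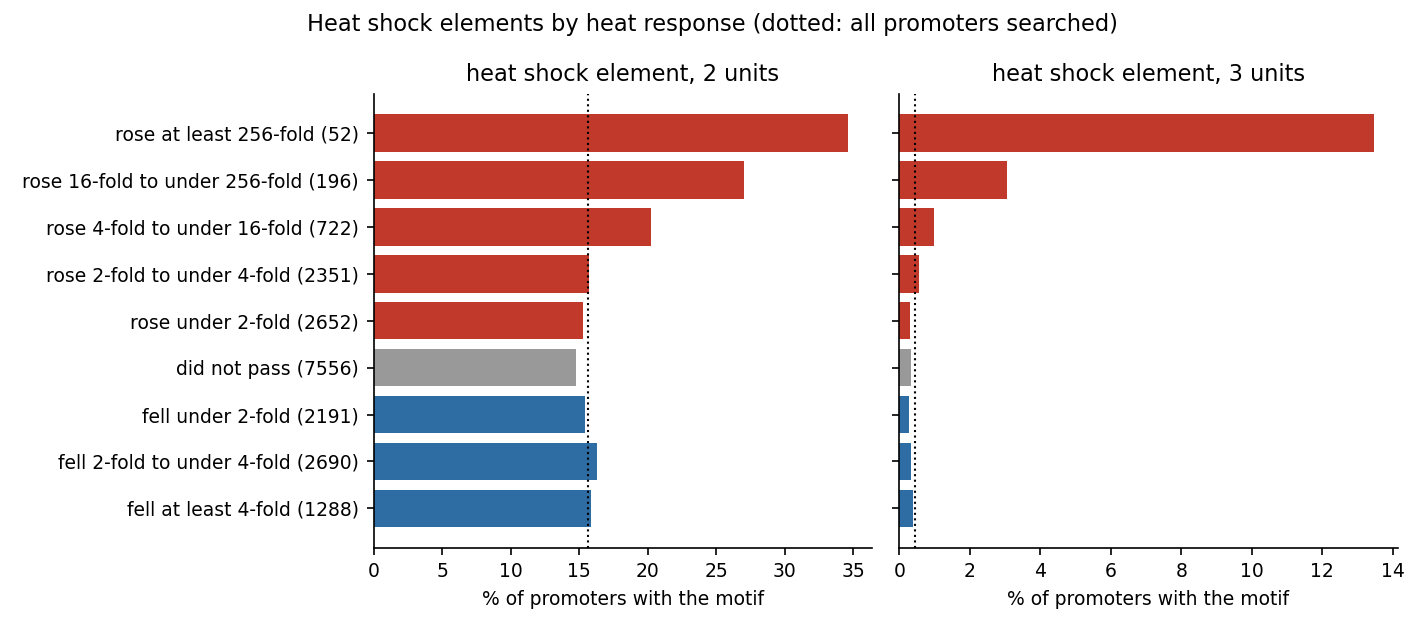
Share of 250-base promoters with a 2-unit (left) or 3-unit (right) heat shock element, horizontal axis in percent, by the gene's heat response in hd2b hd2c, with the number of promoters in brackets and a dotted line at the share of all promoters. The share is highest among genes that rose at least 256-fold, 34.6% and 13.5%.

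Chaperone genes rose together. Of the small heat shock proteins, 17 of 17 tested members rose and 0 fell, with log2 fold changes from 0.69 to 13.16. HSP23.6-MITO, a mitochondrial member, had 3117, 3796 and 3456 CPM in the heat libraries, against 0.502, 0.382 and 0.247 CPM in the normal libraries (log2 fold change 13.16, SE 0.363, adjusted p 7.37e-19). HSP17.4 had 1658, 1755 and 2231 CPM in the heat libraries, against 0.287, 0.509 and 0.309 CPM in the normal libraries. Both genes lay under 1 CPM in every normal library and above 1000 CPM in every heat library. Among the 10 largest increases of genes at 5 CPM or more, ATHSP22.0 (12.73), HSP17.6A (12.61), HSP17.6II (12.51), AT1G53540 (12.50), AT1G07400 (12.27) and AT1G59860 (12.10) are members too, and AT1G07400 was the highest of them with a mean of 5867 ± 304 CPM after heat, against 1.20 ± 0.370 CPM at normal temperature. Several class I members are near-identical copies of each other, so the split of reads between them is uncertain.

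The larger chaperones and their partners followed, since 24 of 25 tested members rose and 0 fell (relative median 4.47). HSP101, the disaggregase needed for acquired heat tolerance, had 8969, 8297 and 9619.9 CPM in the heat libraries, against 9.71, 8.43 and 7.36 CPM in the normal libraries (log2 fold change 10.04, SE 0.265, adjusted p 3.2e-19). Hsp70b, a cytosolic HSP70, had 2694, 2388 and 3235 CPM in the heat libraries, against 2.26, 1.94 and 2.07 CPM in the normal libraries. Of J-domain proteins, the partners that hand substrates to HSP70, 34 of 109 tested members rose and 36 fell. These shares (31.2% and 33.0%) were near those of all genes (29.9% and 31.5%). AT1G71000 (10.84) and AT2G20560 (9.23) rose most, while AT4G36520 (-2.81) and AT4G02100 (-2.45) fell most. Of the chaperonins of plastids, mitochondria and cytosol, 13 of 18 tested members rose and 2 fell (relative median 0.79). The plastid subunit gene Cpn60beta2 had 1389, 1403 and 1349 CPM in the heat libraries, against 53.8, 59.3 and 61.2 CPM in the normal libraries, while Cpn60beta4 fell (-1.15). Genes of folding in the endoplasmic reticulum were split, as 8 rose and 7 fell of 18 tested. ATERDJ3A, a J-domain protein of that compartment, reached a mean of 239.9 ± 55.2 CPM after heat, against 1.32 ± 0.244 CPM at normal temperature, and BZIP28, a membrane-bound factor of the unfolded protein response, rose (2.41), while the disulfide isomerase genes UNE5 (-1.38) and PDIL1-2 (-1.26) fell. The decreases among larger chaperones numbered 1 without heat replicate 2 or heat replicate 3. The decreases among endoplasmic reticulum folding numbered 4 without heat replicate 1.

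Genes of protein breakdown also rose. Of the proteasome subunit genes, 36 of 42 tested members rose and 3 fell (relative median 1.14), against 29.9% and 31.5% of all genes. RPT5B, an ATPase of the regulatory particle, had 63.7, 48.5 and 81.8 CPM in the heat libraries, against 8.17, 9.23 and 9.497 CPM in the normal libraries (log2 fold change 2.87, SE 0.156, adjusted p 2.52e-13), with no overlap of the groups. RPN10, a ubiquitin receptor of the proteasome, had 293, 457 and 244 CPM in the heat libraries, against 67.1, 70.6 and 63.5 CPM in the normal libraries. Exceptions were AT1G62920, annotated as a maturation factor (-2.89), and AT1G53780, a further ATPase gene (-1.42). Ubiquitin-conjugating enzymes followed, as 22 of 35 tested members rose and 2 fell (relative median 0.66), led by UBC12 (4.38) and UBC11 (3.06). F-box proteins, which choose the targets of ubiquitin ligases, fell more often than they rose: 35 of 172 tested members rose and 63 fell, of 628 in the table. AT3G18320 (-5.11) and AT5G07610 (-5.01) were among the 10 largest decreases of genes at 5 CPM or more. FBS1, a stress-induced F-box gene, was an exception with 529, 463 and 549.7 CPM in the heat libraries, against 2.65, 4.90 and 5.13 CPM in the normal libraries. Of the autophagy genes, 3 of 15 tested members rose and 4 fell, and ATG3, whose product attaches lipid to ATG8, rose (1.61). The decreases among ubiquitin-conjugating enzymes numbered 1 without heat replicate 1. The increases among autophagy genes numbered 5 without heat replicate 2.

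Genes of detoxification rose with the chaperones, and so did galactinol synthases. APX2 had 184, 207 and 194 CPM in the heat libraries, against 0, 0 and 0 CPM in the normal libraries, in all 7095 counts after heat and 0 at normal temperature. Set against a floor of 3 counts over the normal group, APX2 was at least 5823-fold higher after heat. CAT2, the main leaf catalase, had 943, 873 and 952 CPM in the heat libraries, against 62.4, 53.0 and 53.1 CPM in the normal libraries (log2 fold change 4.04, SE 0.139, adjusted p 3.61e-17). Of the antioxidant enzyme genes, 29 of 37 tested members rose and 2 fell (relative median 1.48), and of the glutathione transferase genes, 30 of 49 tested members rose and 2 fell (relative median 0.99). GSTU5 (4.56) and GSTF8 (4.24) rose most among the transferases, GSTF8 to a mean of 3633 ± 713 CPM after heat, against 192 ± 9.65 CPM at normal temperature. GolS1, which makes galactinol, the donor for raffinose synthesis, had 2144, 2331 and 2027 CPM in the heat libraries, against 5.70, 4.33 and 5.94 CPM in the normal libraries (log2 fold change 8.67, SE 0.201, adjusted p 4.21e-20), and GolS2 rose (6.16). Over galactinol, raffinose and trehalose synthesis, 7 rose and 3 fell of 16 tested. Among starch and sugar enzymes 16 rose and 6 fell of 33, led by the plastid beta-amylase BAM1, with 855, 817 and 892 CPM in the heat libraries, against 22.0, 21.1 and 17.97 CPM in the normal libraries. Of the late embryogenesis abundant (LEA) proteins and dehydrins, which protect dried cells, 10 rose and 8 fell of 22, with LEA3 (3.48) and RAB18 (2.68) highest and AT1G54410, an abundant dehydrin, at a mean of 68.2 ± 14.6 CPM after heat, against 244 ± 1.83 CPM at normal temperature. Of the fatty acid desaturases 11 rose and 4 fell of 21 (relative median 0.67), with FADA (3.05) and SSI2 (1.81) highest and ADS2 (-1.31) lowest. The decreases among antioxidant enzymes numbered 1 without WT normal replicate 1, WT normal replicate 2, WT normal replicate 3, normal replicate 3, heat replicate 1 or heat replicate 2. The decreases among fatty acid desaturases numbered 2 without normal replicate 2 or heat replicate 1.

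**Figure D4:**
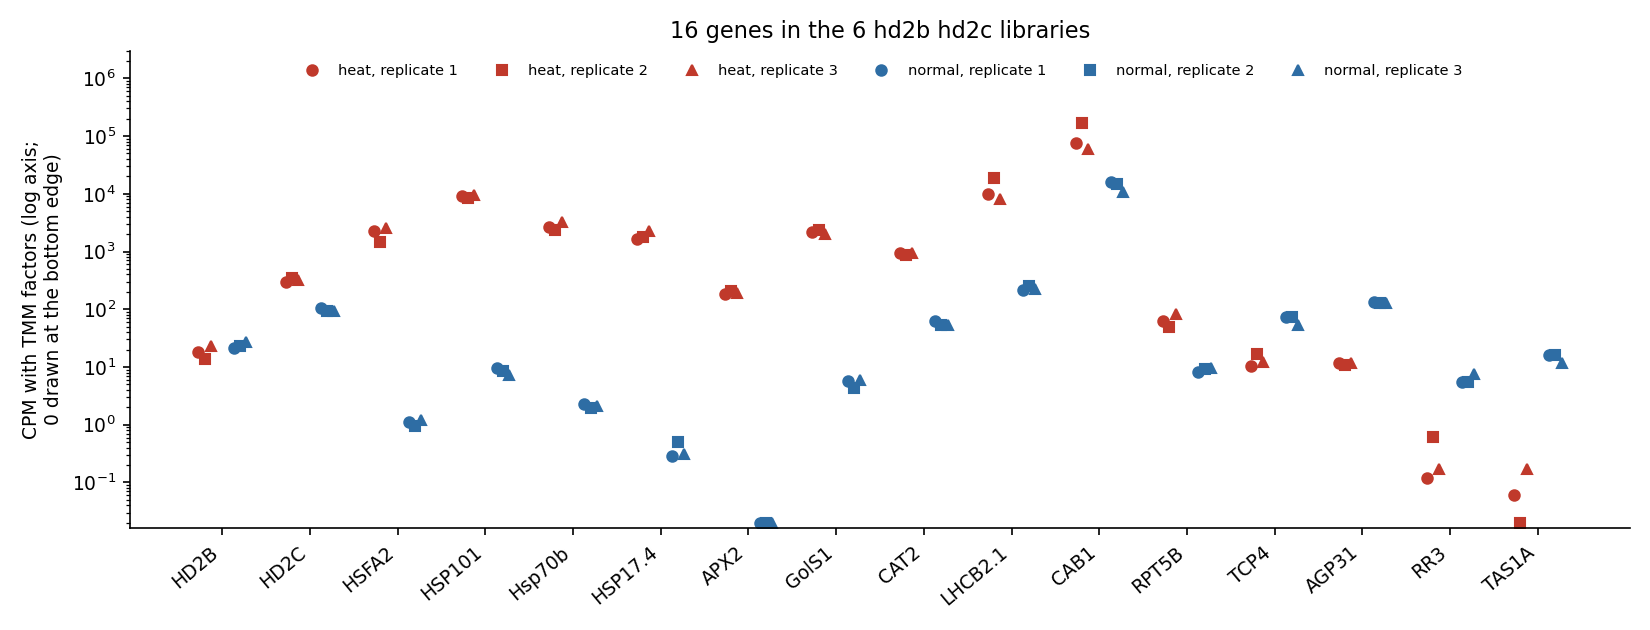
TMM-scaled CPM (vertical, log axis) of 16 genes named in the text in each hd2b hd2c library, heat in red left of normal in blue, with symbols for replicates 1 to 3. HSFA2 lies between 1439 and 2592 CPM after heat and near 1 CPM at normal temperature, while HD2B overlaps between the groups.

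Nuclear genes of photosynthesis held more of the heat than of the normal libraries. Of the photosystem and antenna genes, 49 of 56 tested members rose and 4 fell (relative median 2.49, and 2.14 without heat replicate 2). LHCB2.1, an antenna protein of photosystem II, had 9974, 18685 and 8041 CPM in the heat libraries, against 212, 249 and 223 CPM in the normal libraries (log2 fold change 5.74, SE 0.294, adjusted p 8.52e-14). LHCB2.3, a close relative, reached a mean of 3118 ± 1286 CPM after heat, against 41.0 ± 6.72 CPM at normal temperature. CAB1, the most abundant feature after heat, had 74727, 167138 and 58922 CPM in the heat libraries, against 15958, 14570.2 and 10882 CPM in the normal libraries. Heat replicate 2 was the highest library in each of these genes, and the size of the increase depends on it: CAB1 was 2.86 with all libraries and 2.27 without, LHCA3 3.76 and 3.16, LHB1B1 3.14 and 2.52, and RBCS1A, a Rubisco small subunit, 1.73 and 1.14. All 4 passed the test with and without heat replicate 2. Several antenna genes are near-identical copies, so the split of reads between them is uncertain. The other antenna genes among the 10 most abundant features after heat, LHB1B2 (3.08), CAB3 (3.19), LHCA2 (3.16), LHCB6 (3.97) and LHCB4.1 (3.31), rose too. Abundant at normal temperature were also THI1, of thiamine synthesis (2.51), PSBR (2.01) and PSBO1 (2.43) of photosystem II, and GRP7, an RNA-binding protein of the clock, which did not pass with all libraries (-0.36, adjusted p 0.0669) and fell without heat replicate 2 (-0.53, adjusted p 0.00173). Chlorophyll synthesis rose as a whole list, as 21 of 22 tested members rose and 0 fell (relative median 1.76). Its CRD1, the aerobic cyclase, had 2385, 2290.0 and 2251 CPM in the heat libraries, against 185, 190.1 and 195 CPM in the normal libraries, where heat replicate 2 did not stand out, and GUN5, a subunit of magnesium chelatase, rose (2.89).

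Markers of tissues moved in the same libraries. The 6 shoot markers all rose, with a summed level of 106159 to 265786 CPM after heat, against 20942 to 28831 CPM at normal temperature, and they include photosynthesis genes named above. The 5 root hair markers all fell, with a summed level of 1.54 to 3.05 CPM after heat, against 9.06 to 12.03 CPM at normal temperature. Of the vascular markers 5 rose and 0 fell of 6 (250.3 to 355 CPM after heat, against 70.7 to 79.6 CPM at normal temperature), with XCP1 of the xylem (2.54) and SEOR1 of sieve elements (2.31) highest. Among endodermis and root uptake markers 3 rose and 0 fell of 6 tested, with 45.5 to 104.6 CPM after heat, against 37.8 to 43.5 CPM at normal temperature, and PHT1;1, a root phosphate transporter, at 0.92. Stomatal lineage markers went down (0 rose and 4 fell of 7, 15.9 to 19.2 CPM after heat, against 34.8 to 39.1 CPM at normal temperature), with FMA of guard cells at -1.92. Of meristem and epidermis markers 2 rose and 4 fell of 7, with 192 to 215 CPM after heat, against 255 to 289.6 CPM at normal temperature. No shoot, root hair, vascular, endodermis or stomatal marker was at 0 in a whole group. In whole seedlings, fewer cells of a type and less RNA per cell cannot be told apart, and the part of tissue content in the results was not tested. The decreases among root hair markers numbered 3 without heat replicate 3. The decreases among endodermis and root uptake markers numbered 1 without normal replicate 1. The increases among meristem and epidermis markers numbered 1 without normal replicate 2, normal replicate 3, heat replicate 1 or heat replicate 2. The decreases among meristem and epidermis markers numbered 2 without normal replicate 2.

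In organelles and translation the direction differed between lists. Mitochondrial respiratory complex genes rose more often than they fell (30 rose and 9 fell of 62 tested, relative median 0.45). EMB1467, a complex I subunit, had 273, 282 and 251 CPM in the heat libraries, against 82.5, 87.5 and 74.8 CPM in the normal libraries. SDH3-1 (3.43) rose as well, and PUM21, which overlaps it on the same strand, rose by 11.80 on the log2 scale. Pentatricopeptide repeat proteins, which process organelle RNA, fell more often than they rose: 9 of 235 tested members rose and 120 fell (relative median -0.95). AT1G55630 (-3.02) and AT5G65560 (-2.82) had the lowest values among members at 5 CPM or more, and AT2G02750 (2.20) the highest. Organelle transcription termination factors (mTERF) did likewise, as 5 rose and 14 fell of 30 (relative median -0.52). Ribosomal protein genes rose more often than they fell, as 173 of 317 tested members rose and 43 fell (relative median 0.58, and 0.49 without heat replicate 2). AT2G43030, annotated as a ribosomal protein L3, had 802, 1318 and 718 CPM in the heat libraries, against 191, 189.7 and 156 CPM in the normal libraries, again highest in heat replicate 2. Of translation factors 39 rose and 16 fell of 86 (relative median 0.41). AT5G12110, an elongation factor 1-beta gene, had 960.4, 879.8 and 922 CPM in the heat libraries, against 7.45, 6.11 and 6.68 CPM in the normal libraries. Of ribosome assembly genes 8 rose and 16 fell of 47, where the nucleolin NUC-L1 (1.31) and the fibrillarin FIB1 (1.12) rose and AT5G57120, a nucleolar phosphoprotein gene, fell (-2.65). Of RNA helicases 15 rose and 20 fell of 64, and of splicing factors 26 rose and 30 fell of 90, shares near the background. SCL33, an SR-type splicing factor, was highest of these at 1.89. The increases among pentatricopeptide repeat proteins numbered 5 without normal replicate 1, normal replicate 2 or heat replicate 1 and 4 without heat replicate 3. The decreases among ribosomal proteins numbered 28 without normal replicate 1 and 27 without heat replicate 1. The increases among RNA helicases numbered 8 without heat replicate 3.

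Receptor genes at the cell surface fell together. Of the leucine-rich repeat (LRR) receptor kinases, 4 of 149 tested members rose and 117 fell (relative median -1.23), the largest share of decreases among lists with 50 or more tested members. AT4G36180 had 2.31, 3.05 and 2.92 CPM in the heat libraries, against 16.7, 19.99 and 20.4 CPM in the normal libraries (log2 fold change -2.83, SE 0.203, adjusted p 3.62e-11), and AT5G67200 fell by 3.36 on the log2 scale. Of the cysteine-rich receptor kinases, 1 of 24 tested members rose and 14 fell (relative median -1.45), with CRK2 (-3.04) and CRK28 (-2.73) lowest and CRK21 (1.67) the exception. Of the NLR immune receptors, which detect pathogens inside the cell, 13 rose and 48 fell of 112 tested (relative median -0.59). CW9 (-2.96) and AT2G14080 (-2.40) fell most among members at 5 CPM or more. Calcium sensors of the EF-hand type moved the other way, as 24 of 61 tested members rose and 13 fell (relative median 0.34). AT1G21550 had 299.5, 245 and 293 CPM in the heat libraries, against 2.08, 1.11 and 0.959 CPM in the normal libraries, and TCH3, a touch-induced calmodulin-like protein, rose (3.55). The increases among LRR receptor kinases numbered 2 without normal replicate 1 or normal replicate 2 and 1 without heat replicate 3. The decreases among calmodulin-like and EF-hand proteins numbered 7 without heat replicate 1.

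These receptor families have long transcripts, and length moved with the heat response over all genes. When 19701 protein-coding genes were split by length into 5 equal groups, the shortest group (annotated transcript of 96 to 1142 bases) had 34.2% increases and 22.6% decreases. In the second group these shares were 39.0% and 22.5%, in the third 32.9% and 30.4%, and in the fourth 27.2% and 35.8%. In the longest group (2513 bases or more), 18.2% rose and 45.2% fell, and the median log2 fold change was -0.48, against 0.13 in the shortest. Without heat replicate 2 these medians were -0.43 and 0.06. The median transcript length was 3198 bases in the LRR receptor kinases, 3824 in the NLR receptors and 1729 over all genes tested. The part of length in the results was not tested. Genes of 1 exon fell more often (37.3%) than genes of 5 to 9 exons (27.5%), and rose less often (23.7% and 34.7%).

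**Figure D5:**
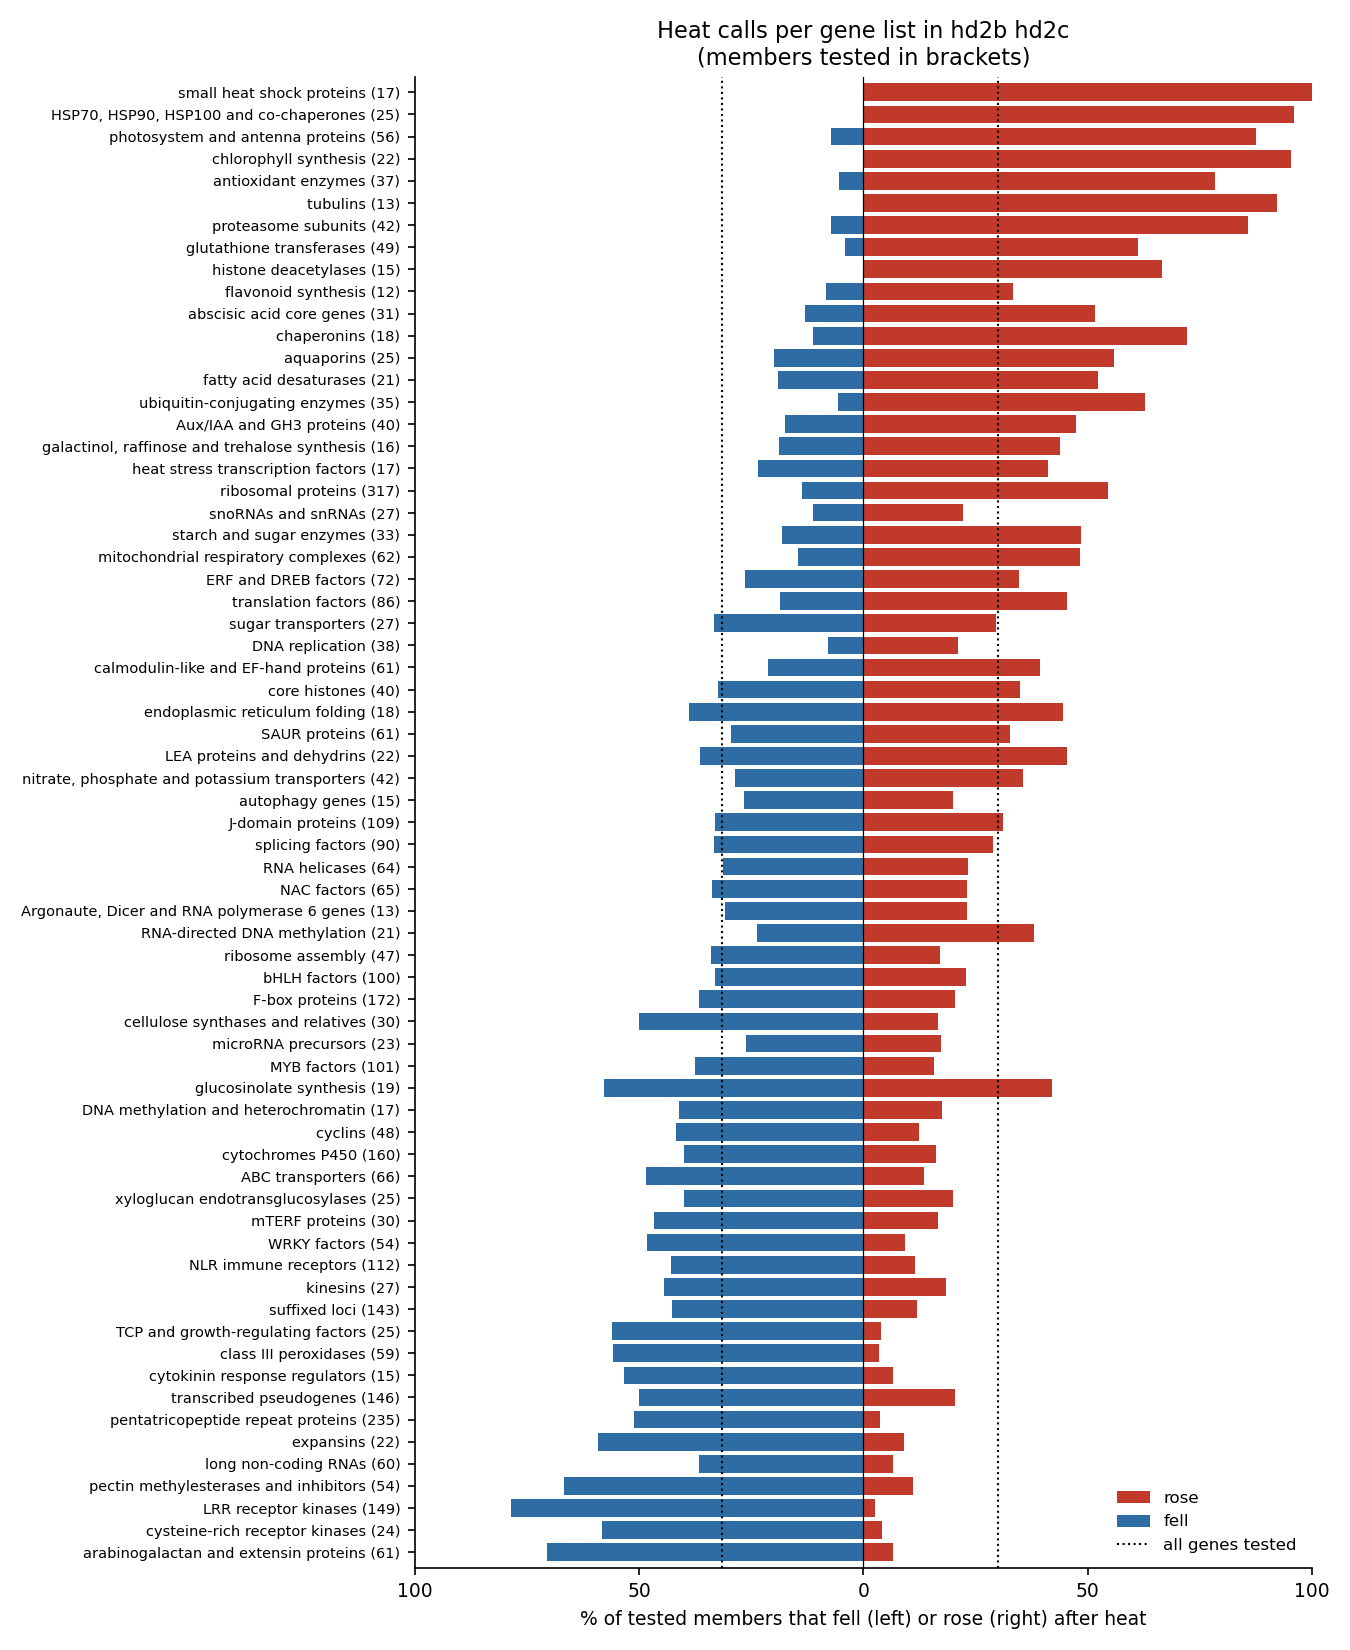
Share of tested members that fell (left, blue) or rose (right, red) after heat in hd2b hd2c, for gene lists with 12 or more tested members, ordered by relative median with the number tested in brackets. Dotted lines mark 31.5% fell and 29.9% rose over all genes tested.

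Cell wall genes fell more often than they rose in each list. Of the arabinogalactan and extensin protein genes, which encode glycoproteins of the wall, 4 of 61 tested members rose and 43 fell (relative median -1.50), with a median transcript length of 1194 bases. AGP31 had 11.5, 10.7 and 11.7 CPM in the heat libraries, against 134, 126 and 129 CPM in the normal libraries (log2 fold change -3.51, SE 0.125, adjusted p 8.18e-17), and EXT3 fell too (-2.49). Of the pectin methylesterases and their inhibitors, 6 of 54 tested members rose and 36 fell (relative median -1.09), of the class III peroxidases, 2 rose and 33 fell of 59 (relative median -0.81), and of the expansins, which loosen walls, 2 rose and 13 fell of 22 (relative median -0.95). AT1G23205, annotated as a pectin methylesterase inhibitor, had 2.55, 0.610 and 1.60 CPM in the heat libraries, against 18.3, 18.5 and 15.1 CPM in the normal libraries. Among xyloglucan endotransglucosylases 5 rose and 10 fell of 25 (relative median -0.51), with XTH18 (-2.49) and XTH30 (-2.43) lowest and XTH7 (1.55) highest. Among cellulose synthases and their relatives 5 rose and 15 fell of 30 (relative median -0.27). The highest values there belonged to IRX3 (1.39) and IRX1 (1.15), both of secondary walls, beside the rise of vascular markers given above. The increases among xyloglucan endotransglucosylases numbered 3 without normal replicate 3 or heat replicate 1.

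TCP and growth-regulating factors, which set leaf growth, fell as 1 of 25 tested members rose and 14 fell (relative median -0.80). TCP3, among the 10 largest decreases of genes at 5 CPM or more, had 0.243, 0.305 and 0.0572 CPM in the heat libraries, against 5.19, 6.27 and 4.52 CPM in the normal libraries (log2 fold change -4.98, SE 0.526, adjusted p 2.31e-08). TCP4, a related factor, had 10.5, 16.5 and 12.1 CPM in the heat libraries, against 73.8, 74.6 and 54.4 CPM in the normal libraries, while TCP11 rose (1.52). Of the cyclins 6 rose and 20 fell of 48 (relative median -0.43), with CYCA3;1 at -2.23, and of the kinesins 5 rose and 12 fell of 27 (relative median -0.62), with ZWI, a kinesin of trichomes, at -1.86. Tubulins rose instead, as 12 of 13 tested members rose and 0 fell (relative median 1.26), with TUB3 at 405, 523 and 415 CPM in the heat libraries, against 118, 124 and 118 CPM in the normal libraries. Genes of DNA replication were called less often than all genes, as 8 rose (21.1%) and 3 fell (7.89%) of 38. PCNA1, the sliding clamp, was highest (1.70). The core histones, with 14 increases and 13 decreases among 40, had shares near the background. The increases among kinesins numbered 3 without heat replicate 1.

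Hormone genes moved list by list. Of the cytokinin response regulators 1 rose and 8 fell of 15 (relative median -0.86). RR3, which represses the cytokinin response, had 0.121, 0.610 and 0.172 CPM in the heat libraries, against 5.55, 5.41 and 7.67 CPM in the normal libraries (log2 fold change -4.98, SE 0.525, adjusted p 2.28e-08), and the related ARR9 fell by 2.23 on the log2 scale. In auxin signalling, 19 of 40 tested members rose and 7 fell among Aux/IAA and GH3 genes (relative median 0.63). The auxin-conjugating enzyme genes WES1 (3.70) and GH3.3 (3.52) rose most, and WES1 had 258, 297 and 253 CPM in the heat libraries, against 20.4, 21.0 and 20.7 CPM in the normal libraries. ATAUX2-11 (-2.54) fell most. Small auxin-up RNA (SAUR) genes had shares near the background (20 rose and 18 fell of 61), from AT4G12410 (4.97) to SAUR36 (-2.57). Core genes of abscisic acid (ABA) rose more often than they fell (16 rose and 4 fell of 31, relative median 0.81). NCED3, the rate-limiting enzyme of ABA synthesis under stress, had 105.2, 121 and 89.7 CPM in the heat libraries, against 7.31, 7.48 and 4.92 CPM in the normal libraries (log2 fold change 3.99, SE 0.170, adjusted p 2.44e-15), HAI2, a phosphatase that dampens the signal, rose (3.41), and the receptor gene PYL6 fell (-2.34). Of the jasmonate ZIM-domain repressors 3 rose and 2 fell of 7. The increases among cytokinin response regulators numbered 0 without normal replicate 2 or heat replicate 3. The decreases among SAUR proteins numbered 11 without heat replicate 1. The decreases among jasmonate ZIM-domain proteins numbered 0 without normal replicate 3.

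Among transcription factor families, WRKY genes fell more often than they rose (5 rose and 26 fell of 54 tested, relative median -0.56), with the defence regulator WRKY33 as an exception (2.04). Of ERF and DREB genes 25 rose and 19 fell of 72 (relative median 0.43). CBF2, known for the cold response, had 115, 137 and 106 CPM in the heat libraries, against 5.27, 6.72 and 6.43 CPM in the normal libraries, and AT5G61590 had 1.94, 2.44 and 2.69 CPM in the heat libraries, against 36.9, 40.9 and 35.0 CPM in the normal libraries. Of NAC genes 15 rose and 22 fell of 65 (23.1% and 33.8%, against 29.9% and 31.5% of all genes). ATAF1, a stress-induced member, had 1136, 1369.6 and 1104 CPM in the heat libraries, against 49.4, 43.2 and 40.03 CPM in the normal libraries, and NAC1 was at -2.38. Of MYB genes 16 rose and 38 fell of 101 (relative median -0.40). Of basic helix-loop-helix genes 23 rose and 33 fell of 100 (23.0% and 33.0%, against 29.9% and 31.5% of all genes). There PRE5 (2.75) rose and HBI1, a growth factor of that family, fell (-2.12). The MYB factors of glucosinolate synthesis MYB34 (-3.02) and MYB28 (-2.49) fell while the chain-elongating enzyme MAM1 (2.39) rose. Over glucosinolate synthesis as a list 8 rose and 11 fell of 19. In flavonoid synthesis 4 rose and 1 fell of 12 tested, and UGT78D2 rose (1.29). Cytochrome P450 genes fell more often than they rose (26 rose and 64 fell of 160, relative median -0.44). The increases among WRKY factors numbered 3 without heat replicate 3. The decreases among NAC factors numbered 14 without normal replicate 3 and 13 without heat replicate 1. The decreases among flavonoid synthesis numbered 0 without heat replicate 1.

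Transporters were mixed. Of the aquaporins 14 rose and 5 fell of 25 (relative median 0.75, and 0.36 without heat replicate 2, where 12 rose and 7 fell). PIP2A, a plasma membrane water channel, had 1097, 1459 and 966 CPM in the heat libraries, against 287, 319 and 302 CPM in the normal libraries. Of the ABC transporters 9 rose and 32 fell of 66 (relative median -0.46). Nitrate, phosphate and potassium transporters counted 15 increases and 12 decreases among 42 (35.7% and 28.6%, against 29.9% and 31.5% of all genes). The sugar transporters, with 8 increases and 9 decreases among 27, had shares near the background. SUC2, which loads sucrose into the phloem, had 127, 180.5 and 97.0 CPM in the heat libraries, against 30.7, 28.3 and 28.03 CPM in the normal libraries. The decreases among aquaporins numbered 2 without normal replicate 3, heat replicate 1 or heat replicate 3.

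Chromatin and small RNA genes included the family of HD2B and HD2C. Of the histone deacetylase genes, 10 of 15 tested members rose and 0 fell (relative median 0.92). HDA08 had 83.0, 75.6 and 71.7 CPM in the heat libraries, against 12.9, 11.8 and 12.1 CPM in the normal libraries (log2 fold change 2.65, SE 0.116, adjusted p 3.76e-15), and HD2C is another of the 10. In RNA-directed DNA methylation 8 rose and 5 fell of 21. AGO4, the Argonaute of this pathway, had 153, 226 and 144 CPM in the heat libraries, against 72.4, 75.8 and 60.1 CPM in the normal libraries, NRPD2A, a subunit shared by its RNA polymerases, rose (1.59), and IDN2, a double-stranded RNA binder, had 0.729, 0.915 and 1.09 CPM in the heat libraries, against 8.81, 7.92 and 8.91 CPM in the normal libraries. Of Argonaute, Dicer and RDR6 genes 3 rose and 4 fell of 13 (23.1% and 30.8%, against 29.9% and 31.5% of all genes). Among them AGO1 (1.11) and AGO2 (1.04) rose and RDR6 (-1.11) fell. Of DNA methylation and heterochromatin genes 3 rose and 7 fell of 17 (relative median -0.42), where VIM1, of methylation maintenance, rose (1.52) and the demethylase genes DME (-1.07) and DML1 (-0.97) fell. Of H2A.Z and SWR1 complex genes 4 rose and 4 fell of 9. All 5 trans-acting small RNA loci fell (relative median -4.14). TAS1A, the largest decrease among genes at 5 CPM or more, had 0.0607, 0 and 0.172 CPM in the heat libraries, against 16.3, 16.3 and 11.9 CPM in the normal libraries (log2 fold change -7.03, SE 0.400, adjusted p 6e-13), and TAS1C fell by 4.79 on the log2 scale. The heat libraries together held 4 counts of TAS1A, so the size of its decrease is uncertain. The decreases among histone deacetylases numbered 1 without normal replicate 1 or heat replicate 3. The increases among H2A.Z histones and SWR1 complex numbered 2 without normal replicate 3 or heat replicate 2.

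Long non-coding RNAs, pseudogenes and suffixed loci fell more often than they rose. Of the long non-coding RNAs tested 4 rose and 22 fell of 60 (relative median -1.02), of the transcribed pseudogenes 30 rose and 73 fell of 146 (relative median -0.88), and of the suffixed loci, a class that holds many transposon genes, 17 rose and 61 fell of 143 (relative median -0.63). The pseudogene AT3G33002 had 4.25, 7.32 and 3.26 CPM in the heat libraries, against 129.5, 147 and 74.0 CPM in the normal libraries. Suffixed loci AT1G35115.1 (-4.57) and AT5G35777.1 (-4.05) fell most and AT2G04135.1 rose, with 32.9, 16.2 and 46.5 CPM in the heat libraries, against 0.394, 0.223 and 0.217 CPM in the normal libraries. Of the microRNA precursors 4 rose and 6 fell of 23 tested, from MIR172a (7.43) and MIR824 (5.11) down to MIR822 (-2.74). Libraries of this kind count precursor transcripts, not mature microRNAs. Of snoRNAs and snRNAs 6 rose and 3 fell of 27, and the snoRNA gene AT4G39361 had 90.3, 101 and 82.8 CPM in the heat libraries, against 1.76, 1.43 and 0.866 CPM in the normal libraries. The other genes among the 10 largest decreases of genes at 5 CPM or more were AT3G61898 (-5.61), AT1G63130, a tetratricopeptide repeat protein gene (-5.25), and AT1G69760 (-4.67). Most of these 10 sizes rest on few counts after heat. In all there were 4 counts for TAS1A and AT3G61898, 6 for AT1G63130 and TCP3 and 7 for RR3, while AT3G33002 had 151.

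Strongly raised genes had a strongly raised neighbour more often than all tested genes did, though most had none. Of 276 genes at least 16-fold higher that could be placed on a chromosome, 208 had a tested neighbour that overlapped or lay within 1000 bases. For 52 of these (25%) such a neighbour was also at least 16-fold higher. Over the 15008 tested genes with a neighbour at that distance, 1.99% lay next to a gene at least 16-fold higher. Overlapping pairs made up 10 of the 52, 8 of them with the partner on the other strand, and the part of shared reads was not tested. Neighbouring copies of the same gene family were not set apart.

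Beside WT, the heat response of hd2b hd2c was largely shared. Of the increases in hd2b hd2c, 5477 were also called in WT (90.4% of those in hd2b hd2c and 87.4% of those in WT), and of the decreases, 5509 (86.3% and 78.2%). In WT 31.0% of genes rose and 34.8% fell. The test of the difference itself, the genotype by heat interaction, called 30 genes with a higher and 38 with a lower response in hd2b hd2c (0.148% and 0.188% of 20232, 0.336% in all), and 1799 genes had an unadjusted p under 0.05. Of the 1443 genes called in hd2b hd2c and not in WT, 8 had a called interaction. The counts depend on single libraries. Without hd2b hd2c heat replicate 2, 172 genes had a higher and 167 a lower response in hd2b hd2c, and without any of 9 other libraries, each of which moved a count by over 1.5 times (WT heat replicate 2, WT heat replicate 3, WT normal replicate 1, WT normal replicate 2, hd2b hd2c heat replicate 1, hd2b hd2c heat replicate 3, hd2b hd2c normal replicate 1, hd2b hd2c normal replicate 2, hd2b hd2c normal replicate 3), the counts were 5 to 19 higher and 11 to 50 lower. Among genes named above, the interaction passed for HD2B, CBF2 and ERF6. HSFA2 was 10.91 in hd2b hd2c and 10.15 in WT, HSP101 10.04 and 9.63, APX2 and AT-HSFA7B rose in both, LHCB2.1 was 5.74 and 5.61, and TAS1A -7.03 and -5.68. For none of these 6 genes did the interaction pass (edgeR's quasi-likelihood test, adjusted p 0.0841 or more), which does not show that the responses were equal.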

How the data were processed

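RNA of whole 6-day seedlings was sequenced in 12 libraries, 3 per genotype and temperature. Per the labels' protocols, libraries were made from Trizol-extracted RNA with a commercial kit. Per the submitters' processing notes, the tools were HISAT2 2.1.0, an aligner, and featureCounts 2.0.3, which counts reads per gene, with the genome build TAIR10. How strand and multi-mapping reads were handled is not given in the sources used here. The deposited table holds whole-number counts of reads per feature, not normalized by the authors, for 33330 features in 12 columns.

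All 12 libraries entered 1 fit of 4 groups with edgeR 4.0.16 in R 4.3.3. The function filterByExpr (minimum count 10, total 15) kept 20232 genes. Scaling used TMM factors and the test was edgeR's robust quasi-likelihood test. A gene was called at a Benjamini-Hochberg adjusted p under 0.05, over every gene kept. The SE of a log2 fold change was derived from the fitted value and its F statistic. Heat was compared with normal temperature within hd2b hd2c, and the interaction compared this difference with that in WT. On simulated counts the fit recovered 72% of genes changed 2-fold and 95% of those changed 4-fold, and called 0.0454% of unchanged genes. Only 200 genes were changed there, and the other heat means were set to the normal means. In the data 61.5% of genes were called, so the simulation does not test the scaling or the rate of false calls under so broad a change. Depth limits low genes most in heat replicate 2. Intervals and floors (95%, 3 counts) cover counting error only, and no molecular identifiers are named in the labels.

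Alternatives were DESeq2 1.42.0, upper-quartile factors, library totals, no filter, a minimum count of 50, ribosomal RNA left out, a replicate block, the hd2b hd2c libraries alone and each library left out. Gene names and coordinates come from the RefSeq annotation of TAIR10.1, matched by locus. Genes named are HD2B and HD2C, the 10 largest changes each way among genes at 5 CPM or more, up to 2 members each way per list by the same minimum, and the 10 most abundant features of each group. This selects 288 genes, of which the text names 151, a choice made with their values known. The gene lists and the comparison were likewise chosen with earlier results of these data known.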

Additional observations from a re-analysis of the deposited data

Results flagged for a closer look

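For HD2B and CBF2, both described above, the change with heat differed between the genotypes by the interaction in edgeR's quasi-likelihood test. HD2B had 18.2, 14.0 and 23.5 CPM in the heat libraries, against 21.7, 22.8 and 26.9 CPM in the normal libraries of hd2b hd2c. In WT its mean was 85.8 CPM after heat, against 40.03 CPM at normal temperature, a log2 fold change of 1.10 (SE 0.133). The difference between the responses, hd2b hd2c minus WT, was -1.3991, SE 0.195, adjusted p 0.000928. CBF2 had 115, 137 and 106 CPM in the heat libraries, against 5.27, 6.72 and 6.43 CPM in the normal libraries of hd2b hd2c (log2 fold change 4.27), and in WT its mean was 75.1 CPM after heat, against 1.25 CPM at normal temperature (log2 fold change 5.92). It rose in both, and the difference was -1.6507, SE 0.253, adjusted p 0.00252.

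The other genes here were chosen from the largest called interactions after their values were seen. CTR1 (AT5G03730), a kinase of ethylene signalling at the locus numbered just before HD2C, had 215, 226 and 240.1 CPM in the heat libraries, against 48.0, 46.6 and 43.7 CPM in the normal libraries of hd2b hd2c. It rose there and did not pass in WT, where its mean was 36.8 CPM after heat, against 40.3 CPM at normal temperature, and the interaction was 2.4342, SE 0.160, adjusted p 4.17e-09. ASN1, an asparagine synthetase of starved leaves, had a mean of 117 CPM after heat, against 1.99 CPM at normal temperature in hd2b hd2c (log2 fold change 5.86), and 152 CPM after heat, against 6.40 CPM at normal temperature in WT (4.57), and rose more in hd2b hd2c (interaction 1.2960, SE 0.204, adjusted p 0.00352). STZ, a zinc finger repressor of stress responses, had a mean of 119 CPM after heat, against 16.7 CPM at normal temperature in hd2b hd2c (log2 fold change 2.80), and 168 CPM after heat, against 2.51 CPM at normal temperature in WT (6.05). Its interaction was -3.2536, SE 0.382, adjusted p 0.00199. ERF6, an ethylene response factor, had a mean of 29.1 CPM after heat, against 10.1 CPM at normal temperature in hd2b hd2c (log2 fold change 1.44), and 47.0 CPM after heat, against 3.30 CPM at normal temperature in WT (3.80), with an interaction of -2.3581, SE 0.308, adjusted p 0.000603. In STZ, ERF6 and CBF2 the mean at normal temperature was higher in hd2b hd2c than in WT, a difference not tested here, and all rose in both genotypes. DIC2, a mitochondrial dicarboxylate carrier, had a mean of 6.26 CPM after heat, against 17.7 CPM at normal temperature in hd2b hd2c (log2 fold change -1.59), and 9.87 CPM after heat, against 3.78 CPM at normal temperature in WT (1.36), so it fell in hd2b hd2c and rose in WT, with an interaction of -2.9526, SE 0.336, adjusted p 6.11e-05. Without hd2b hd2c heat replicate 2, the interactions of HD2B, CBF2, CTR1, ASN1, STZ, DIC2 and ERF6 passed the test.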

How the results depend on the processing

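The counts of 6058 increases and 6380 decreases were within 1.5 times of these under every alternative run except library totals (969 and 15816). They were 5956 and 6732 with DESeq2, 6095 and 6566 with no filter, 5652 and 5938 with a minimum count of 50, 5850 and 6234 from the hd2b hd2c libraries alone, and 5502 to 6110 and 5438 to 6586 with any of the 12 libraries left out. A fit of the 5 hd2b hd2c libraries other than heat replicate 2, chosen after the data were seen, gave 6318 and 6662. The interaction counts of 30 higher and 38 lower became 2 and 8 with library totals, 93 and 87 with no filter, 126 and 81 with DESeq2, and 5 to 172 and 11 to 167 with a library left out. With library totals the interactions of HD2B, CBF2 and ASN1 no longer passed, and 12 log2 fold changes of named genes turned below 0 (NUC-L1 -0.15, FIB1 -0.41, TCP11 -0.028, XTH7 -0.0053, IRX3 -0.073, IRX1 -0.30, UGT78D2 -0.17, AGO4 -0.22, AGO1 -0.41, AGO2 -0.40, PHT1;1 -0.62 and ERF6 -0.072). The cause was not tested. The call of AT3G41768 was lost under most alternatives, and GRP7 passed under some. Of the counts of list members that rose or fell, 133 moved by over 1.5 times with library totals and 19 did not. With upper-quartile factors 29 moved and 123 did not. With library totals the median not taken relative to all genes was -0.47 in proteasome subunits, -1.03 in ribosomal proteins and -0.35 in tubulins. It was 10.21 in small heat shock proteins, 2.88 in larger chaperones and 0.80 in photosystem and antenna genes. No relative median given in the text changed sign under any alternative run, but only 43 of the 76 lists have one given. Some of those left out did change sign without heat replicate 2. The relative median of LEA proteins and dehydrins was 0.25 with all libraries and -0.10 without it, and that of RNA helicases -0.054 and 0.022. The share of ribosomal RNA, heat minus normal, was 2.74 percentage points with all libraries and -0.720 to 4.54 with a library left out, below 0 without heat replicate 2.

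Whether replicate numbers pair the libraries was not settled. The deviations of heat and normal libraries with the same number correlated at -0.0970, 0.186 and 0.267 over 12851 genes. With different numbers the correlations were -0.279 to 0.185. Libraries numbered 2 and 3 correlated best with their own number, and those numbered 1 did not. The 3 deviations within a group depend on each other, so these values cannot decide it. With the replicate number as a block, 5901 genes rose and 6111 fell, and the interaction called 15 higher and 32 lower. Features under about 1 CPM are limited by the depth of heat replicate 2, and the 0 counts of APX2 at normal temperature allow only a lower bound.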
